A study of Mus with 50 samples.

Results

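The 13 livers with the highest and the 13 with the lowest expression of 5 NRF2 target genes were compared across all other genes, out of 50 livers profiled. The livers were chosen by their measured levels: Nqo1, Txnrd1, Srxn1, Gstm3 and Ugdh were each standardised over the 50 livers and averaged into a five-gene score, and the livers were ranked by it. The 24 livers between the groups were kept apart and used only where stated. All 50 came from female mice of a backcross of C57 with FVB, each carrying MMTV-Neu, a transgene whose viral promoter drives the Neu proto-oncogene mainly in the mammary gland. Breast cancer is listed as a comorbidity of all of them, in both score groups alike. The series design places the livers at the extremes of an ageing grade, but the labels do not give the grade, the age or a treatment for any mouse, so both groups carry the same label. The high-score and low-score livers differ by label in nothing but the animal number.

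NRF2, encoded by Nfe2l2, is a transcription factor that KEAP1 holds in the cytosol and marks for degradation. Oxidants and electrophiles modify KEAP1, and NRF2 then reaches the nucleus, pairs with small MAF proteins and binds antioxidant response elements. In liver it is known for driving quinone reduction, glutathione and thioredoxin recycling, conjugation with glutathione or glucuronate, and export of the conjugates.

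Signals are log2 values from 1 array per liver, so a difference of 1 is a doubling, and the level of one gene's probes cannot be set against that of another. The median of each array lay between 3.27 and 3.34 in both groups. The hepatocyte genes Alb, Ttr and Apoa1 had medians of 13.46, 12.87 and 11.99 in high-score livers and 13.47, 12.87 and 12.04 in low-score livers, which fits the labelled tissue, although the extraction protocol speaks of purified cell populations. A total of 3 livers stood apart from the rest by their correlation with the other livers: animal 84 among the high-score livers, and animals 64 and 235 among the low-score livers. Over the genes tested animal 87, in neither group, did so as well. Another measure, a far-out value on a list of cell type markers, marked 3 high-score, 6 low-score and 4 middle livers. Animal 96, a high-score liver, had a pancreatic acinar score of 4.87 SD. Animal 64 had an erythroid score of 5.69, animal 235 a macrophage score of 3.52 and animal 161 a mammary score of 3.99, all 3 being low-score livers. In bulk tissue, fewer cells of a type and less RNA per cell cannot be told apart.

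The score ran from 0.35 to 1.53 in high-score livers, with a median of 0.80, and from −1.63 to −0.42 in low-score livers, with a median of −0.75. The last liver taken into the high group scored 0.351 and the first left out 0.340. At the other edge, the last liver left out scored −0.400 and the first taken into the low group −0.419. The score is therefore a continuum cut at fixed ranks, with no gap at either edge. Because the 5 genes chose the groups, their values are a description and carry no test.

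Nqo1, the quinone reductase, ran from 5.55 to 7.31 with a median of 5.99 in high-score livers, and from 4.54 to 6.80 with a median of 5.14 in low-score livers. Its mean difference was 0.89. Txnrd1, the cytosolic thioredoxin reductase, ran from 8.05 to 8.77 around 8.31 in high-score livers and from 7.55 to 8.19 around 7.86 in low-score livers, a difference of 0.45. Srxn1, which repairs over-oxidised peroxiredoxins, had the smallest difference of the 5 at 0.35, with medians of 6.26 in high-score and 5.93 in low-score livers. Gstm3, a mu-class glutathione transferase, had the widest difference at 1.43, with medians of 8.11 in high-score and 6.81 in low-score livers. Ugdh, which makes the UDP-glucuronate used for glucuronidation, had medians of 9.20 in high-score and 8.25 in low-score livers and a difference of 0.83. The ranges of the 2 groups overlapped for each of the 5 genes.

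The 5 genes moved together unevenly. Across the 50 livers, which all share the same array platform and normalisation, Ugdh followed the mean of the other 4 most closely (Pearson r = 0.719) and Gstm3 least (r = 0.378). Pairwise r ran from 0.093 for Nqo1 with Gstm3 to 0.613 for Txnrd1 with Ugdh. Single livers went against their group for single genes. Animal 84 ranked first on the score with a Gstm3 signal of 5.05, the lowest of the high-score livers. Animal 64 ranked next to last with an Nqo1 signal of 6.80, the highest of the low-score livers. A high score thus did not mean a high level of every one of the 5 genes.

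**Figure D1:**
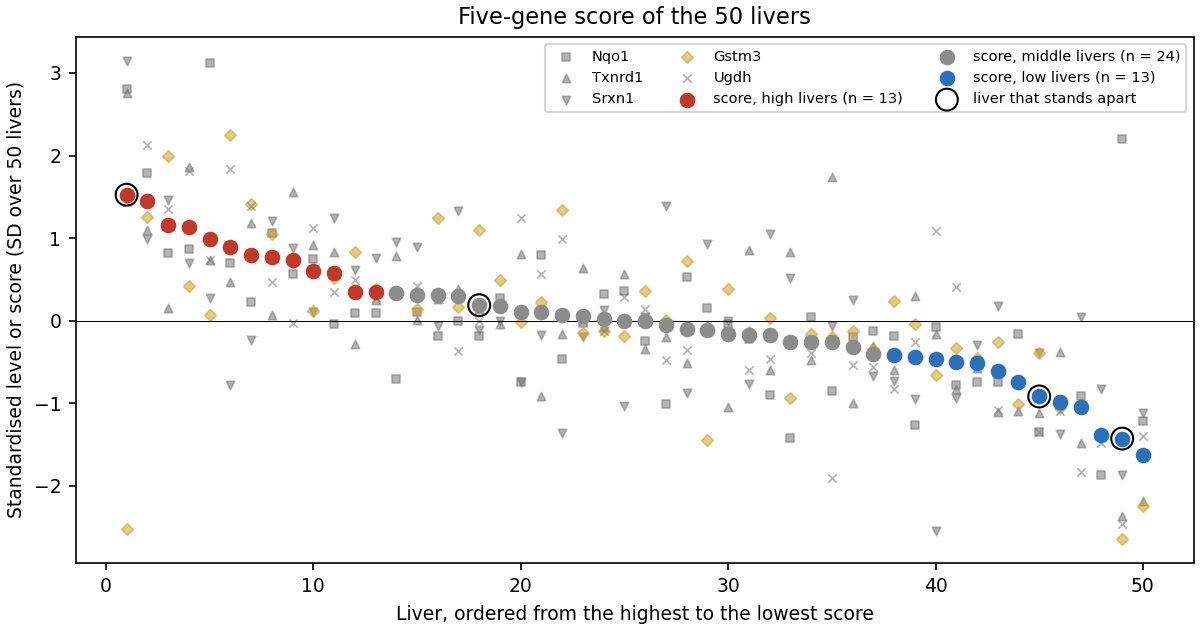
Five-gene score of the 50 livers in rank order, with the standardised level of each of the 5 genes behind it (y axis, SD over the 50 livers). Large points are the score, high-score livers at left in red and low-score livers at right in blue; rings mark the 4 livers that stand apart over the genes tested. The score falls without a step at the group edges, and single genes scatter widely around it, as Gstm3 does in the first liver and Nqo1 in the next to last.

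No other gene passed an adjusted p of 0.05 in the 13 against 13 comparison by limma. Of 11085 genes tested besides the 5, 0% were called higher and 0% lower, and the smallest adjusted p was 0.303. At an unadjusted p of 0.05, 880 genes (7.94%) were higher and 219 (1.98%) lower in high-score livers, and the median difference of all genes was 0.02. Of the 11085 differences 6241 were positive. Without the livers with far-out cell type scores, 6 genes were higher at an adjusted p of 0.05, by limma. They were Acsl5, Dhrs4, Gnai3, Idh1, Nqo2 and Zcchc17, and 1 gene, Rnu11, was lower.

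The score was then used as a continuous measure over all 50 livers, which keeps the 24 middle livers in the fit. The slope is the change in log2 signal per 1 unit of the score. By this slope 427 genes (3.85%) rose with the score and 38 genes (0.343%) fell with it at an adjusted p of 0.05. At an unadjusted p of 0.05 the shares were 15.4% rising and 6.1% falling. The adjusted counts moved with the livers and with the animal number. High-score livers came mostly from animals 84 to 128 (7 high, 1 low) and low-score livers more often from animals 7 to 79 (1 high, 5 low). Animals 137 to 235 held 3 high and 5 low livers, and animals 253 to 301 held 2 of each. These stretches of animal number are not a labelled batch. They were found in the same arrays. With the stretch as a block 48 genes (0.433%) rose and 4 (0.0361%) fell. Without the 4 livers that stand apart 199 genes (1.80%) rose and 34 (0.307%) fell, and 118 of those 199 were among the 427. When single livers were left out, 193 of the 427 remained without animal 64, 229 without animal 101 and 261 without animal 235, and more without any other liver. Below, "rose" and "fell" refer to the slope over 50 livers at an adjusted p under 0.05 by limma, and differences refer to high-score minus low-score livers.

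Among genes outside the score that are named as NRF2 targets, those of conjugation, carbonyl and quinone handling and export made up most of the called ones. Of 97 measured members of the 9 target lists 86 passed the level filter, which used the median over all 50 livers and not the groups. In all 18 of the 86 rose and none fell, against 3.85% of all genes rising. The median difference was 0.19 for the 86 genes and 0.02 for all genes. With the stretch as a block 10 of the 86 rose, and without the 4 livers that stand apart 18 did. With Gstm3 left out of the score 11 rose. The lists and the 5 genes were chosen with earlier results of these data known, and the glutathione transferases share sequence with Gstm3, so these counts are descriptions.

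The glutathione transferases, which couple glutathione to electrophiles, were the NRF2 target list with the most called members. Of 16 tested members outside the score 7 rose, against 3.85% of all genes: Gsta3, Gsta4, Gstm1, Gstm4, Gstp2, Gstt2 and Gstt3. The median difference of the 16 was 0.41, and 15 of the 16 differences were positive, against 6241 of all 11085 genes. Gstm1 ran from 7.81 to 8.86 with a median of 8.16 in high-score livers, and from 6.54 to 8.25 with a median of 7.77 in low-score livers. The groups overlapped, with 5 high-score livers above all low-score livers and 10 low-score livers below all high-score livers. Its difference was 0.54 (SE 0.15) and its slope 0.32 (SE 0.06, adjusted p = 0.00365).

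Gstt3, a theta-class transferase, had the largest difference of the group at 0.88 (SE 0.30). Its medians were 6.56 in high-score and 6.05 in low-score livers, with 9 high-score livers above every low-score liver, and its slope was 0.54 (SE 0.13, adjusted p = 0.0127). Gsta4, which conjugates the lipid peroxidation product 4-hydroxynonenal, ran from 7.57 to 9.71 around 9.28 in high-score livers and from 6.55 to 9.21 around 8.65 in low-score livers. Its slope was 0.39 (SE 0.10, adjusted p = 0.0213). The 3 livers that stand apart were the lowest of their groups for this gene. Gstm2 and Gstm7 had positive slopes of 0.33 and 0.29 that did not pass (adjusted p = 0.0646 and 0.0851).

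Several of these calls changed with the make-up of the score and with the animal number. With the stretch as a block Gstm1, Gstm4 and Gstp2 rose, and without the 4 livers that stand apart 6 of the 7 rose, Gstt2 being the exception (adjusted p = 0.209). With a score of the other 4 genes, leaving out Gstm3, 434 of all genes rose (3.92%) and 36 fell (0.325%), and of the transferases Gstm1, Gstp2 and Gstt2 rose (adjusted p = 0.029, 0.049 and 0.00951). The mu-class genes lie side by side on chromosome 3. Among the 10 tested genes on either side of Gstm3, 4 of 20 rose: Gstm1, Gstm4 and 2 neighbours that are no transferases, Ahcyl1 (slope 0.13, adjusted p = 0.0275) and the G protein subunit Gnai3 (slope 0.15, adjusted p = 0.00983). Ugdh had 2 rising neighbours of 20, Ube2k and Rbm47, and Nqo1, Txnrd1 and Srxn1 had 0 of 20 each. Of all genes tested 3.85% rose with the five-gene score, and the counts of neighbours carry no test. The genotype of these mice at the loci was not analysed here, and whether it moves with the score was not tested. Hybridisation between paralogues of this family is possible, so the signal of each member is uncertain.

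The enzymes that reduce or oxidise carbonyls, quinones and epoxides held 3 rising members of 12 tested, against 3.85% of all genes. Their median difference was 0.42. Aox1, an aldehyde oxidase, ran from 6.06 to 7.66 around 7.12 in high-score livers and from 4.88 to 7.23 around 6.26 in low-score livers. It differed by 0.81 (SE 0.23) and rose with a slope of 0.48 (SE 0.09, adjusted p = 0.00292). Most high-score livers lay above the low-score median for Aox1 (12 of 13). Cbr1, a carbonyl reductase, had medians of 8.53 in high-score and 7.98 in low-score livers and a slope of 0.41 (SE 0.08, adjusted p = 0.00225). Aldh1a1, a retinaldehyde dehydrogenase, had medians of 10.27 in high-score and 9.32 in low-score livers and a slope of 0.41 (SE 0.11, adjusted p = 0.0226). That call ended with the stretch as a block (adjusted p = 0.0727), whereas Aox1 and Cbr1 passed (adjusted p = 0.0282 and 0.0425). Nqo2, a relative of Nqo1, had medians of 7.53 in high-score and 6.92 in low-score livers and a slope of 0.25 that did not pass (adjusted p = 0.198).

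In the glucuronidation group, which uses the product of Ugdh, all 8 tested members had positive differences, with a median of 0.47. Of all 11085 genes 6241 had positive differences. Among the 8 members 2 rose, against 3.85% of all genes. Ugt2b35, a UDP-glucuronosyltransferase, ran from 6.76 to 7.59 around 7.45 in high-score livers and from 5.41 to 7.94 around 6.98 in low-score livers. It rose with a slope of 0.35 (SE 0.08, adjusted p = 0.00717), although its highest value was in a low-score liver. Ugt2b34 had medians of 10.41 in high-score and 10.06 in low-score livers and a slope of 0.32 (SE 0.09, adjusted p = 0.0265). Ugt2b5 and Ugt2b1 had the largest differences of the group, 0.68 each, and did not pass (adjusted slope p = 0.0657 and 0.131). With the stretch as a block the call of Ugt2b34 ended (adjusted p = 0.188), and without the 4 livers that stand apart that of Ugt2b35 did (adjusted p = 0.0733). The UGT1A transferases were not analysed here because their probes are shared.

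Of 7 efflux transporters, which carry conjugates and drugs out of hepatocytes, 2 rose, against 3.85% of all genes. Abcb1a, a multidrug P-glycoprotein of the canalicular membrane, ran from 4.89 to 6.25 around 5.65 in high-score livers and from 3.80 to 5.58 around 4.91 in low-score livers. There were 7 high-score livers above every low-score liver. The difference was 0.84 (SE 0.18), a 1.79-fold higher signal, and the slope was 0.53 (SE 0.08, adjusted p = 0.000183). Abcc2, the canalicular exporter of glutathione and glucuronide conjugates, had medians of 10.24 in high-score and 9.97 in low-score livers and a slope of 0.29 (SE 0.08, adjusted p = 0.0348). Its call ended both with the stretch as a block (adjusted p = 0.171) and without the 4 livers that stand apart (adjusted p = 0.313). Abcc4, a basolateral exporter, had a slope of 0.30 over 50 livers (adjusted p = 0.141) and passed without those 4 livers (slope 0.32, adjusted p = 0.00721).

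**Figure D2:**
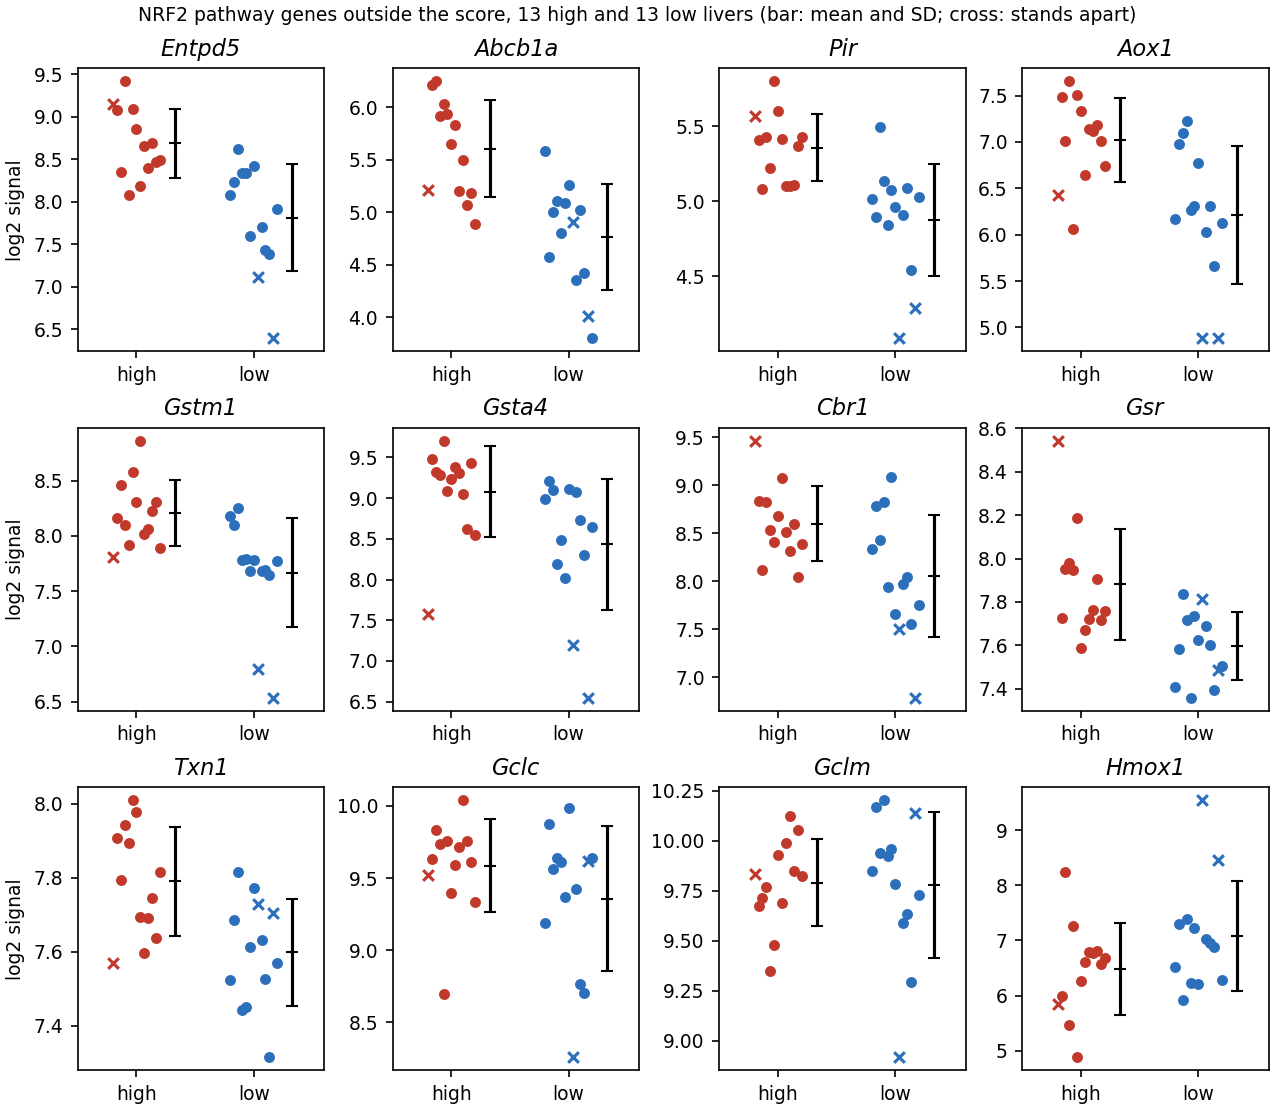
Log2 signal of 12 genes of the NRF2 pathway outside the score in the 13 high-score livers (red, left) and the 13 low-score livers (blue, right) of each panel; the bar is the mean with its SD and crosses are the livers that stand apart. Entpd5, Abcb1a and Pir separate the groups most, while Gclc, Gclm and Hmox1 overlap along most of their range.

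Entpd5 was the gene most closely related to the score among all 11085. It encodes a nucleoside diphosphatase of the endoplasmic reticulum that acts in protein glycosylation. Entpd5 ran from 8.08 to 9.42 with a median of 8.65 in high-score livers, and from 6.39 to 8.62 with a median of 7.92 in low-score livers. All 13 high-score livers lay above the low-score median, 7 of them above every low-score liver. The difference was 0.87 (SE 0.20), a 1.83-fold higher signal, and the slope was 0.54 (SE 0.07, adjusted p = 2.82e-06). The slope stayed close to this within each stretch of animal numbers, at 0.48, 0.54, 0.56 and 0.65 from the lowest numbers to the highest. Among the 24 middle livers, which the group comparison did not use, its slope was 0.31 (SE 0.20, adjusted p = 1).

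Pir, which encodes pirin, a nuclear iron-binding protein, also rose. It ran from 5.08 to 5.8 around 5.41 in high-score livers and from 4.09 to 5.49 around 4.96 in low-score livers. All but 3 low-score livers lay below every high-score liver. The difference was 0.48 (SE 0.12) and the slope 0.26 (SE 0.05, adjusted p = 0.00225). These were the 2 rising members among 15 further genes listed as NRF2 targets, against 3.85% of all genes rising. The median difference of the 15 was 0.05. Sqstm1, the autophagy receptor p62 that also binds KEAP1, had medians of 9.30 in high-score and 9.11 in low-score livers and a slope of 0.15 that did not pass (adjusted p = 0.0824).

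Glutathione and thioredoxin genes rose in single members only. Of 7 tested genes of glutathione synthesis and recycling 1 rose, against 3.85% of all genes. The median difference was 0.02, the same as that of all genes. The riser was Gsr, glutathione reductase, which ran from 7.59 to 8.54 around 7.76 in high-score livers and from 7.36 to 7.84 around 7.60 in low-score livers. Its slope was 0.17 (SE 0.04, adjusted p = 0.00851). Both subunits of glutamate-cysteine ligase, the rate-limiting enzyme of glutathione synthesis, overlapped between the groups. Gclc had medians of 9.63 in high-score and 9.56 in low-score livers and a slope of 0.14 (adjusted p = 0.272). For Gclm the medians were 9.83 in high-score and 9.85 in low-score livers, with a difference of 0.01 (95% interval −0.23 to 0.25) and a slope of 0.01 (adjusted p = 0.909). Slc3a2, the heavy chain of the cystine transporter, had lower medians in high-score livers, 8.0 against 8.19 in low-score livers, and did not pass (adjusted p = 0.17).

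In the thioredoxin and peroxiredoxin group 1 of 9 tested genes rose, against 3.85% of all genes. The median difference of the 9 was 0.01. Txn1, the cytosolic thioredoxin and substrate of Txnrd1, had medians of 7.80 in high-score and 7.61 in low-score livers. Its slope of 0.10 (SE 0.03, adjusted p = 0.037) did not pass with the stretch as a block (adjusted p = 0.143). None of the 6 tested genes that supply NADPH, the reductant of these systems, rose over the 50 livers. Me1, malic enzyme, had the widest difference there at 0.96, with medians of 7.89 in high-score and 7.24 in low-score livers (slope 0.51, SE 0.16, adjusted p = 0.0539). Idh1, the cytosolic isocitrate dehydrogenase, had 9 high-score livers above every low-score liver and medians of 10.16 in high-score and 9.65 in low-score livers. Its slope was 0.26 (adjusted p = 0.0971). When the 4 livers that stand apart were left out, 2 of the 6 passed, Idh1 (adjusted p = 0.0251) and the transaldolase gene Taldo1 (slope 0.14, adjusted p = 0.0287).

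None of the 6 tested haem and iron genes passed the slope test. Of their differences 5 of 6 were below 0, with a median of −0.10, whereas 6241 of all 11085 genes had positive differences. Hmox1, the inducible haem oxygenase, ran from 4.88 to 8.25 around 6.61 in high-score livers and from 5.93 to 9.55 around 6.95 in low-score livers. Its difference was −0.60 (SE 0.34) and its slope −0.36 (adjusted p = 0.15). Within the low-score livers the 2 highest Hmox1 values were in animals 64 and 235, and without the livers that stand apart the slope had an adjusted p of 0.668. Blvrb, biliverdin reductase B, had medians of 7.55 in high-score and 7.64 in low-score livers (slope −0.25, adjusted p = 0.068).

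None of the 13 tested transcripts of NRF2 and its regulators rose or fell over the 50 livers. Their median difference was 0.10. Nfe2l2 itself ran from 8.10 to 8.80 around 8.49 in high-score livers and from 7.58 to 9.10 around 8.28 in low-score livers, with a slope of 0.12 (SE 0.06, adjusted p = 0.232). It passed without the 4 livers that stand apart (adjusted p = 0.0287). Keap1 had medians of 6.16 in high-score and 5.96 in low-score livers and a slope of 0.06 (adjusted p = 0.497). With the mean of all its probe sets that slope was −0.05. No protein was measured. NRF2 activity itself was not tested, so the groups are called here by the five-gene score.

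**Figure D3:**
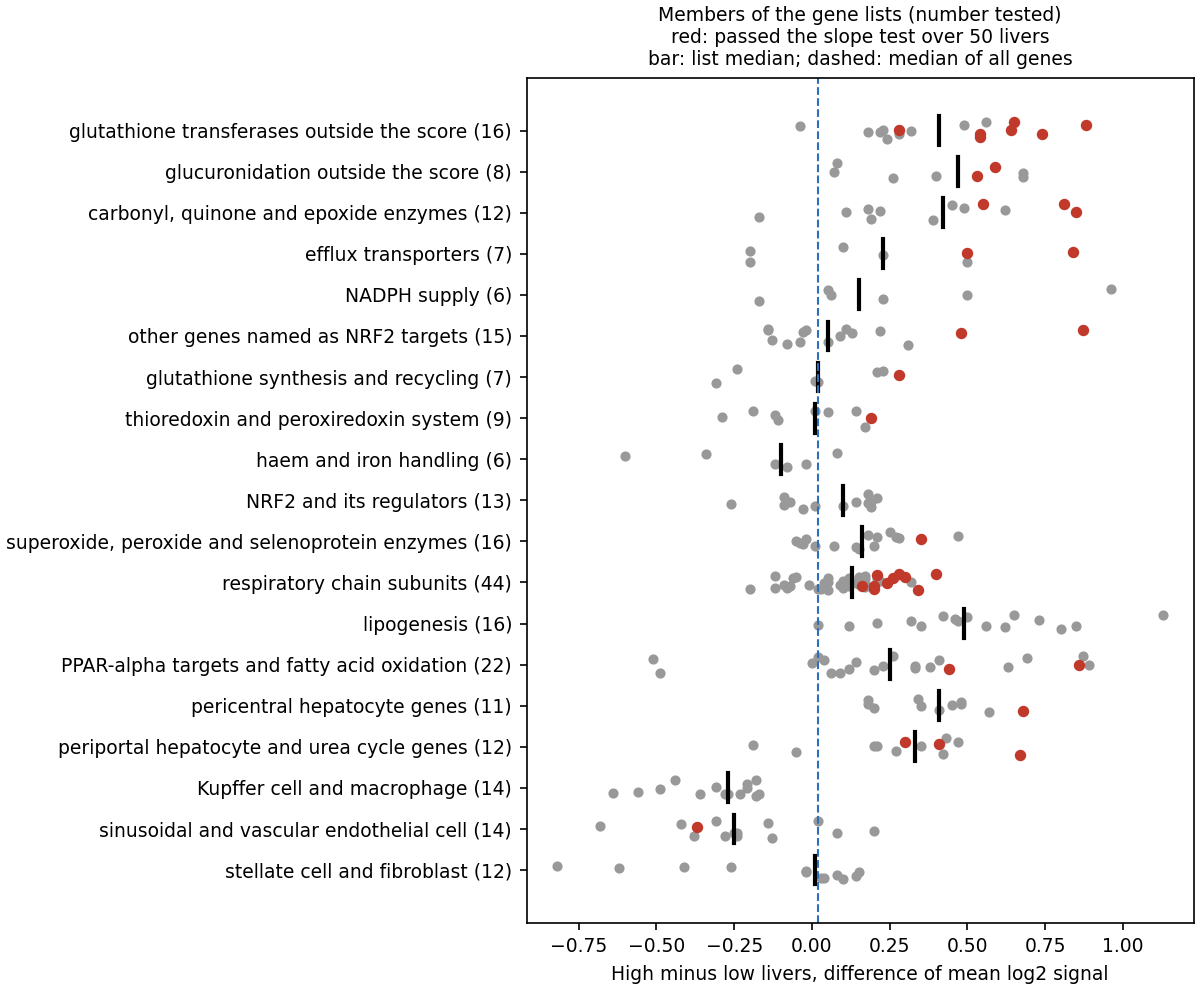
Difference of mean log2 signal, high-score minus low-score livers, for each tested member of 19 gene lists (points; red where the slope over 50 livers passed an adjusted p of 0.05). Black bars are list medians and the dashed line is the median of all genes, 0.02. By their medians, lipogenesis, glucuronidation, carbonyl enzymes, glutathione transferases, pericentral and periportal genes lie furthest to the right. Glutathione synthesis and thioredoxin genes lie around the line, and macrophage and endothelial markers to the left.

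Outside the NRF2 lists, mitochondrial genes held the next largest number of called members. Of 44 tested respiratory chain and ATP synthase subunits 10 rose and none fell, against 3.85% of all genes rising, with a median difference of 0.13. Sdhb, the iron-sulphur subunit of complex II, ran from 8.06 to 8.68 around 8.42 in high-score livers and from 7.55 to 8.58 around 8.13 in low-score livers (slope 0.19, SE 0.04, adjusted p = 0.00612). Sdha, the flavoprotein of the same complex, had medians of 9.93 in high-score and 9.56 in low-score livers and a slope of 0.24 (SE 0.05, adjusted p = 0.00772). Atp5a1, the alpha subunit of ATP synthase, had 10 high-score livers above every low-score liver and a slope of 0.17 (adjusted p = 0.00921). The differences were small, 0.40 at most, and 1 of the 10 passed with the stretch as a block (Sdhb, adjusted p = 0.0284, with 0.433% of all genes rising) and 1 without the 4 livers that stand apart (Atp5pb, adjusted p = 0.0251, with 1.80% of all genes rising). Dlat, the acetyltransferase of the pyruvate dehydrogenase complex, which was in no list, differed more. Its medians were 6.61 in high-score and 6.15 in low-score livers, with a slope of 0.28 (SE 0.05, adjusted p = 0.00365). Sod2, the mitochondrial superoxide dismutase, was the 1 riser among 16 superoxide, peroxide and selenoprotein enzymes (slope 0.20, adjusted p = 0.0162), against 3.85% of all genes. The call of Sod2 ended with the block (adjusted p = 0.108) and without the 4 livers (adjusted p = 0.181).

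Lipid genes had mostly positive differences with few calls. Of all 11085 genes tested 6241 had positive differences. Of 22 genes of fatty acid oxidation and PPAR-alpha response 2 rose, against 3.85% of all genes, with a median difference of 0.25. Ehhadh, a peroxisomal beta-oxidation enzyme, ran from 8.14 to 9.62 around 8.91 in high-score livers and from 7.00 to 8.87 around 8.35 in low-score livers. It had 7 high-score livers above every low-score liver and a slope of 0.45 (SE 0.10, adjusted p = 0.00839). Acadm, the medium-chain acyl-CoA dehydrogenase, had a slope of 0.28 (adjusted p = 0.00935). Neither passed with the stretch as a block (adjusted p = 0.0679 and 0.163) or without the 4 livers that stand apart (adjusted p = 0.0685 and 0.196). In lipogenesis all 16 tested genes had positive differences, with the highest median of the lists named here at 0.49, and none passed the slope test. Acss2, which makes acetyl-CoA from acetate, had medians of 9.02 in high-score and 8.13 in low-score livers (slope 0.44, adjusted p = 0.0864). Pnpla3, a lipid droplet protein, had the widest difference of that list at 1.13 and did not pass (adjusted slope p = 0.228).

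Hepatocyte zonation genes of both ends of the lobule had mostly positive differences, against 6241 positive among all 11085 genes. All 11 pericentral genes had positive differences, with a median of 0.41, and 1 rose, the ornithine aminotransferase gene Oat (slope 0.44, adjusted p = 0.0162). Of 12 periportal and urea cycle genes 10 had positive differences, with a median of 0.33, and 3 rose. Aldh1l1, a folate enzyme, was the clearest of them, with medians of 9.94 in high-score and 9.55 in low-score livers and a slope of 0.41 (SE 0.09, adjusted p = 0.00897). Without the livers of the groups that stand apart the median difference was 0.22 for the pericentral and 0.09 for the periportal genes. The calls of Oat and Aldh1l1 ended with the stretch as a block (adjusted p = 0.274 and 0.0727). Of 19 targets of the drug sensors CAR and PXR 1 rose, the sulphotransferase gene Sult1d1 (slope 0.42, adjusted p = 0.0197), and its difference of 0.60 was −0.10 without the livers with far-out cell type scores. None of 5 tested genes of the aryl hydrocarbon receptor list, which holds the receptor, its partner and targets, rose. Of 10 heat shock genes 2 rose, the co-chaperone gene Bag3 (slope 0.31, adjusted p = 0.0245) and the mitochondrial chaperonin gene Hspd1 (slope 0.16, adjusted p = 0.0412). Of 30 proteasome genes 1 rose, the ATPase subunit gene Psmc1 (slope 0.12, adjusted p = 0.0303). For the CAR and PXR targets and the proteasome these counts are near the 3.85% of all genes that rose. The calls of Bag3, Hspd1 and Psmc1 ended under both alternatives.

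Genes in no list were among those with the steepest rising slopes. Rdh16, a retinol dehydrogenase, ran from 6.56 to 8.73 around 7.85 in high-score livers and from 4.93 to 7.98 around 6.78 in low-score livers (slope 0.66, SE 0.14, adjusted p = 0.00499). Sult1c2, a sulphotransferase, had medians of 5.85 in high-score and 4.89 in low-score livers and a slope of 0.64 (SE 0.13, adjusted p = 0.00413). For Sugct, a glutarate CoA-transferase, the medians were 6.85 in high-score and 6.06 in low-score livers, with 9 high-score livers above every low-score liver. The amino acid enzymes Prodh, proline dehydrogenase, and Aass, of lysine breakdown, had slopes of 0.60 and 0.55 (adjusted p = 0.00413 and 0.00817). Rdh16 and Sult1c2 passed with the stretch as a block and without the 4 livers that stand apart, and Sugct and Aass passed under neither. Prodh passed with the block (adjusted p = 0.023) and did not pass without the 4 livers (adjusted p = 0.0547).

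**Figure D4:**
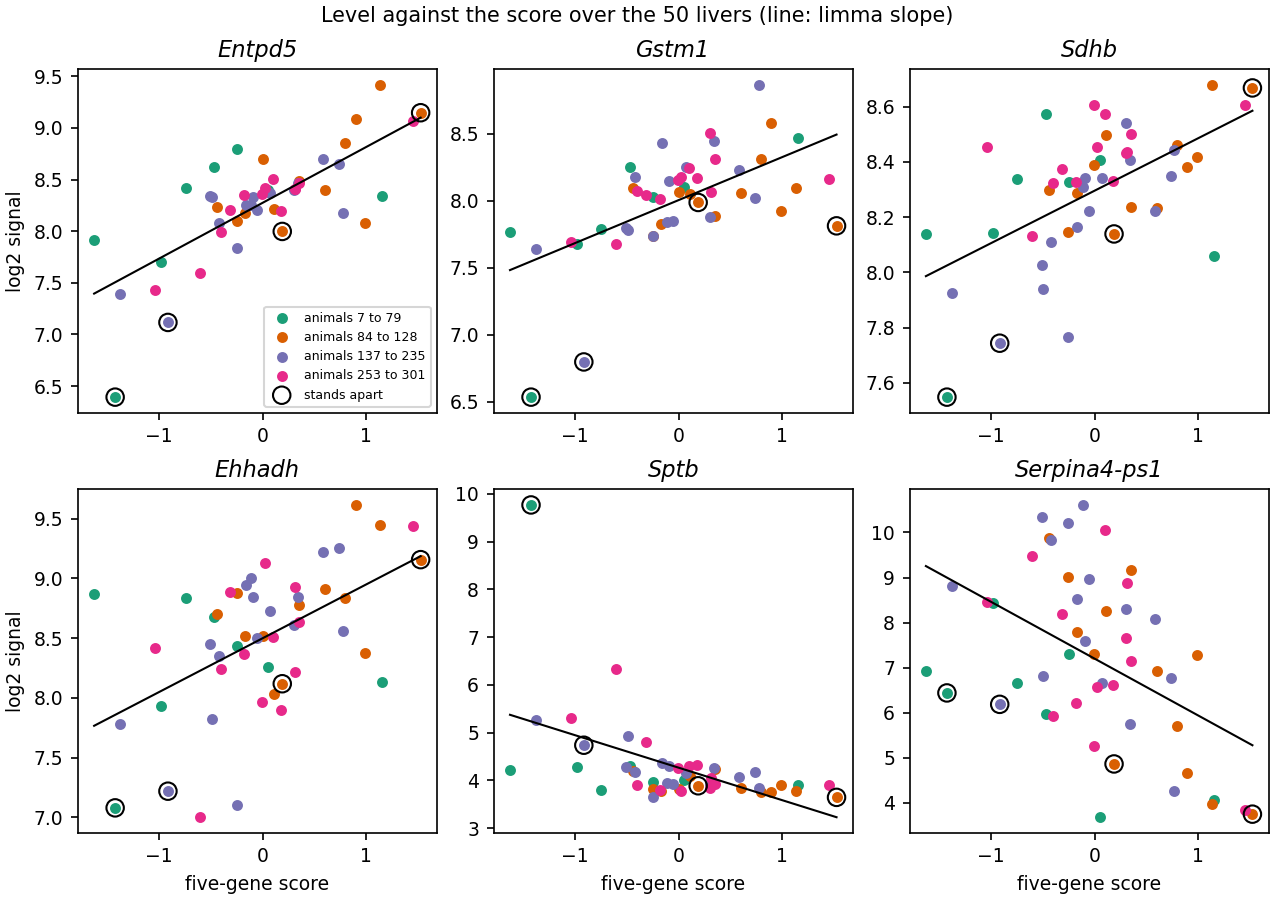
Log2 signal (y axis) against the five-gene score (x axis) in the 50 livers for 6 genes, coloured by stretch of animal numbers, with the limma slope as a line and rings on the 4 livers that stand apart. Entpd5 follows the score in every colour, the 2 low-score livers that stand apart lie lowest for Gstm1, and Sptb is highest in 1 of them.

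Falling genes were few. Serpina4-ps1, a serpin pseudogene, had the largest difference of all genes, −2.20 (SE 0.63). It ran from 3.75 to 9.17 around 5.70 in high-score livers and from 5.97 to 10.34 around 8.44 in low-score livers, and 12 of 13 high-score livers lay below the low-score median. Its slope was −1.26 (SE 0.33, adjusted p = 0.02), and it was the 1 gene that fell in all 3 of the 50-liver fit, the fit with the stretch as a block and the fit without the 4 livers. Sptb, an erythroid spectrin, fell with a slope of −0.68 (SE 0.16, adjusted p = 0.00979). Its medians were 3.89 in high-score and 4.31 in low-score livers, near the cut of the level filter at 3.61. Its highest signal, 9.77, was in animal 64. Without the 4 livers its slope was −0.37 (adjusted p = 0.0334), and with the stretch as a block its call ended (adjusted p = 0.0914). The histone gene H2ac10 fell as well (slope −0.59, adjusted p = 0.0491) and did not pass without them (adjusted p = 0.486).

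Markers of other cell types moved with the score in part. Of all 11085 genes tested 6241 had higher means in high-score livers. All 14 tested macrophage and Kupffer cell markers had lower means in high-score livers, with a median difference of −0.27, and none passed. The list score is the mean standardised level of all measured markers of a cell type, tested or not. For macrophages it ran from −1.62 to 1.17 in high-score and from −0.72 to 3.52 in low-score livers. Without the livers that stand apart the median difference of the tested markers was 0.00. C1qb, a complement gene of Kupffer cells, had medians of 8.22 in high-score and 8.53 in low-score livers. Of 14 endothelial markers 11 had lower means in high-score livers, with a median of −0.25, and 1 fell, against 0.343% of all genes. This was Fcgr2b, the inhibitory Fc receptor of sinusoidal endothelium, with medians of 9.25 in high-score and 9.65 in low-score livers (slope −0.19, SE 0.06, adjusted p = 0.0455), a call that ended with the stretch as a block (adjusted p = 0.0925). The endothelial list score ran from −2.10 to 1.17 in high-score and from −1.04 to 0.93 in low-score livers. Stab2, a scavenger receptor of the same cells, had a slope of −0.23 that did not pass over the 50 livers (adjusted p = 0.0862) and passed with the stretch as a block (adjusted p = 0.0382). Fcgr2b and Stab1, a receptor related to Stab2, fell without the 4 livers that stand apart (adjusted p = 0.0494 and 0.0438). The endothelial median difference was −0.33 without the livers of the groups that stand apart. None of 12 stellate cell and fibroblast markers passed; 6 of the 12 differences were positive and the median was 0.01, with the widest for the collagen genes Col1a1 and Col3a1 at −0.82 and −0.62. All 4 tested neutrophil markers had lower means in high-score livers, with a median of −0.36 (−0.38 without the livers that stand apart), and none passed. The neutrophil list score, over 13 measured markers, had a median of −0.54 in high-score and 0.58 in low-score livers. It ran from −0.87 to 1.46 in high-score and from −0.88 to 2.31 in low-score livers.

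Hepatocyte markers gave 2 risers of 12, against 3.85% of all genes. They were Tdo2 and Hpd, which degrade tryptophan and tyrosine (slopes 0.43 and 0.31, adjusted p = 0.0442 for each). Of the 12 differences 8 were positive, with a median of 0.11. The hepatocyte list score ran from −1.66 to 0.70 in high-score and from −4.07 to 0.51 in low-score livers. Without the 4 livers that stand apart neither Tdo2 nor Hpd passed (adjusted p = 0.568 and 0.273). Pkhd1, a cilium gene of bile duct cells, rose with a slope of 0.34 (adjusted p = 0.0166, and 0.231 without the 4 livers). The other 3 tested cholangiocyte markers had lower means in high-score livers and did not pass. The median difference of the 4 cholangiocyte markers was −0.14. The part of cell composition in the differences between the score groups was not tested.

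A set of 26 genes rose in the 50-liver fit, with the stretch as a block and without the 4 livers that stand apart. It held 9 genes of the NRF2 lists, which were Abcb1a, Aox1, Cbr1, Entpd5, Gsr, Gstm1, Gstm4, Gstp2 and Pir. The NRF2 lists make up 86 of the 11085 genes tested, and were chosen with earlier results of these data known. A narrower set of 12 genes rose under all 14 alternatives of scaling, livers, blocks and score make-up (level filters and the fit within the 26 livers not included), and whenever any single liver was left out. These were Abcb1a, Aox1, Entpd5, Gstm1 and Pir of the NRF2 lists, Dlat, the stem cell and duct marker gene Prom1 (slope 0.57, adjusted p = 0.00426), the interferon-induced chemokine gene Cxcl11 (slope 0.34, adjusted p = 0.0127), Fam210a (slope 0.23, adjusted p = 0.00225), Rufy3 (slope 0.24, adjusted p = 0.00225), Thnsl2 (slope 0.42, adjusted p = 0.00426) and Gm14403 (slope 0.46, adjusted p = 0.00876). For the 5 NRF2 genes the slope was positive within each of the 4 stretches of animal numbers. The smallest of these was that of Aox1 in animals 84 to 128 at 0.07, and the widest that of Abcb1a in animals 7 to 79 at 0.88.

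**Figure D5:**
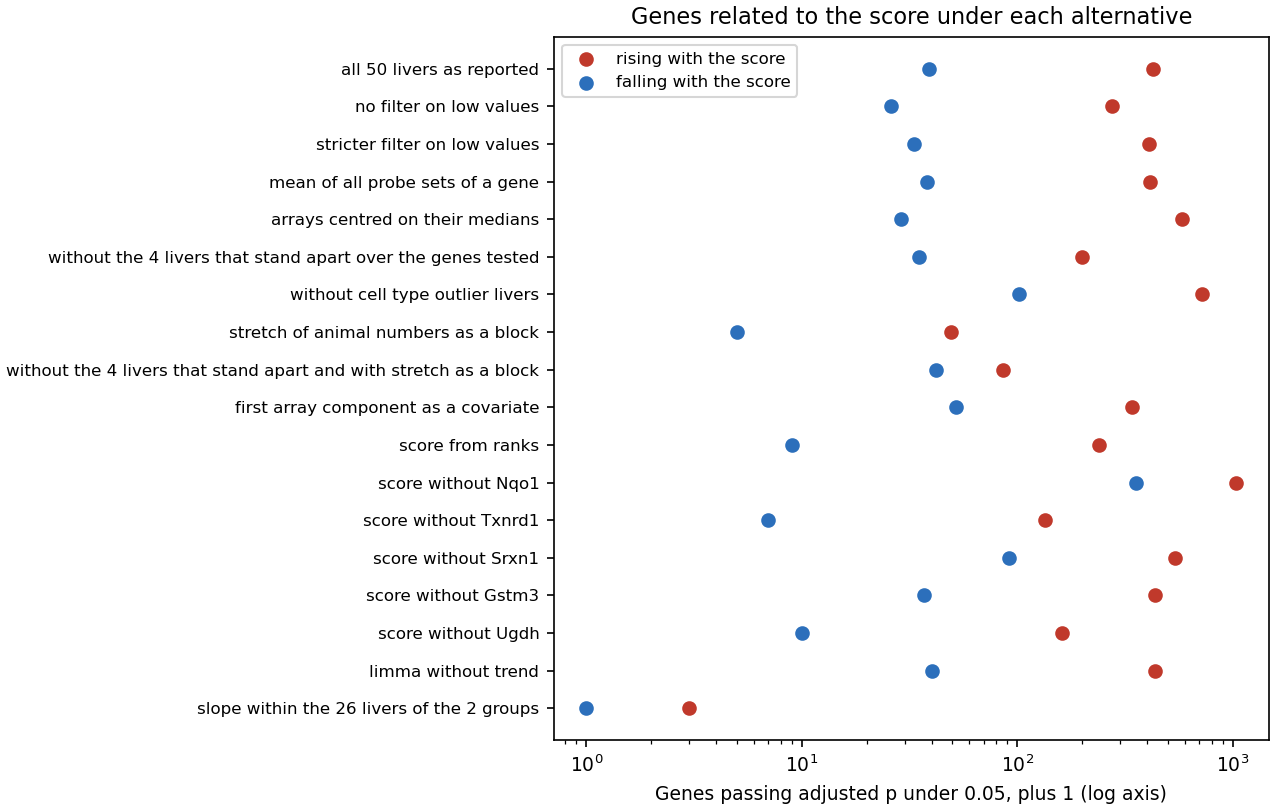
Number of genes that passed an adjusted p of 0.05 for the slope on the score (x axis, log scale, count plus 1) under each alternative, rising in red and falling in blue. The rising count is 427 as reported, 48 with the stretch as a block and 1037 when Nqo1 is left out of the score.

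The 24 middle livers give the same measure in livers that neither group used. Their scores span only −0.40 to 0.34. No gene passed there by limma (0% rising and 0% falling, smallest adjusted p = 1), and at an unadjusted p of 0.05 only 106 genes (0.956%) rose and 89 (0.803%) fell. Of the 16 glutathione transferases 15 had a positive slope in these livers, against 5619 of all 11085 genes, and 4 had an unadjusted limma p under 0.05. They were Gsta4 (slope 0.81, SE 0.22, p = 0.00129), Gstt3 (slope 1.32, SE 0.46, p = 0.00834), Gstp2 (slope 0.50, SE 0.19, p = 0.0139) and Gstm1 (slope 0.42, SE 0.19, p = 0.0343). None of the 4 passed adjustment over all genes. The score in these livers includes Gstm3, with which the transferases share sequence. For Abcb1a, Aox1 and Pir the slopes in the middle livers were 0.02, 0.06 and −0.09.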

How the data were processed

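Liver RNA of 50 mice was hybridised to 1 Affymetrix array each. The authors deposited log2 signals from RMA; per the submitters' processing notes the program was Affymetrix Expression Console 1.4.1. RMA equalises the arrays' distributions, so overall RNA amount is not measured. The platform annotation gave 23521 of the 41345 probe sets a single gene symbol, 1814 more than one and 16010 none. Each of 22180 genes was read from its single-symbol probe set with the highest median. Genes with a median of at least 3.61 over the 50 livers, 11085 besides the 5 score genes, were tested with limma 3.58.1 in R 4.3.3 (lmFit, eBayes with trend, two-sided, Benjamini-Hochberg). Python 3.11.15, numpy 2.4.6 and pandas 2.3.3 were used. The number of arrays limits the precision.

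The labels give 1 group; mice are separate animals by number. A liver stands apart when its median correlation with the rest is over 3 interquartile ranges under the lower quartile. Boundaries between stretches of animal numbers were taken from earlier work on these data. Of 664 list genes 590 were measured and 37 sat only on shared probe sets; the remainder were not analysed here. Neighbours came from a RefSeq mouse gene table, ordered by start position on each chromosome, and no sequence was used.

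The livers, lists and tests were chosen with earlier results of these data known. The rule for named genes took the score genes, all members of the NRF2 and regulator lists, of each other list up to 4 members with the smallest adjusted p and the 2 with the highest median, and up to 10 called genes in each direction. The comparison called none, so other genes, named from the slope over 50 livers, were chosen after their values were seen.

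The steps were tested on simulated data with 200 of 11085 genes changed. Each gene was drawn independently of the others, so correlation between genes was not simulated. For 13 against 13 livers 0%, 55.5% and 89% were recovered at differences of 0.25, 0.5 and 1. Of the genes called, 6.72% were false at 0.5 and 4.81% at 1. For the slope 0.5%, 45.5% and 89% were recovered at 0.1, 0.2 and 0.4 per score unit, and 0%, 4.21% and 2.2% of the calls were false. Alternatives covered level filters, probe sets, centring, livers, blocks and score make-up.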

Additional observations from a re-analysis of the deposited data

How the results depend on the processing

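The 13 against 13 comparison called 0 genes higher and 0 lower under most alternatives. It called 6 higher and 1 lower without the livers with far-out cell type scores, and 2 higher (Oxnad1 and Zcchc17) without animal 10. Leaving out each liver in turn thus gave 0 to 2 higher and 0 lower. The slope over all 50 livers gave 427 rising and 38 falling, and over the 46 that do not stand apart 199 and 34. The 46-liver fit and all further alternatives for the slope were chosen after seeing the data. Rising and falling counts were 275 and 25 with no level filter, 721 and 101 without the far-out cell type livers, 48 and 4 with the stretch as a block, 238 and 8 with a score from ranks, and 2 and 0 within the 26 livers of the groups. Without the 4 livers and with the block 85 rose and 41 fell. Leaving out Nqo1, Txnrd1 or Ugdh from the score gave 1037 and 353, 134 and 6, and 161 and 9; without Srxn1 537 rose and 91 fell. Leaving out each liver in turn gave 229 to 873 rising and 16 to 211 falling, the extremes without animals 101 and 10. Counts also moved by over 1.5 times without animals 64 (275 and 23), 84 (656 and 132), 235 (275 and 21), 40 (66 falling) and 114 (25 falling). Within stretches, from the lowest numbers, 0, 0, 403 and 4 genes rose and 0, 0, 169 and 5 fell. The cause of these shifts was not tested. No gene passed in the 24 middle livers under any alternative run there.

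Gclm changed sign. Its difference was −0.04 without the livers that stand apart, by either rule, −0.003 with the block, −0.03 with the first array component or without animals 64 and 235, −0.01 without Ugdh in the score, −0.07 without the 4 livers and with the block, and −0.06 to 0.05 when each liver was left out in turn. Its slope was −0.0018 without the 4 livers, −0.01 with the block added or with the first array component, and −0.02 to 0.04 with each liver left out in turn. Without the 4 livers and with the block, Blvrb had a difference of 0.05 and a slope of 0.03, Tdo2 −0.05 and −0.03, and C1qb a difference of 0.03. With the mean of all probe sets Keap1 had −0.06 and −0.05. The slope of Taldo1 was −0.03 without Nqo1 and −0.0039 without Gstm3 in the score, −0.00016 within the 26 livers, and −0.02 to 0.07 with each liver left out in turn. Sult1d1 had −0.10 without the far-out cell type livers. No paired analysis was possible because the labels give 1 group. Signals near the floor limit low genes such as Sptb, and to a lesser degree Abcb1a and Pir.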
